A study of Mus musculus with 4 samples.

Results

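Glycolysis and the response to low oxygen were followed through 36 genes, which were taken by name from the 54842 genes of the deposited count table. They are 4 transporters of glucose or monocarboxylates, 17 glycolytic enzymes, 2 enzymes that make or degrade fructose 2,6-bisphosphate, 4 pyruvate dehydrogenase kinases, 4 regulators of the hypoxia response and 5 of its targets. Ribosomal RNA depleted total RNA had been sequenced from mouse embryonic fibroblasts (MEF cells) that were wild-type (wt) or Top2beta null (Top2β-null), with 2 libraries of each genotype. All 4 libraries came from untreated cells. The study describes high glucose medium with pyruvate for its MEF cells and names no medium for the Top2β-null line. The oxygen tension is not given in the sources used here. The Top2β-null cells were derived from null mice and reached the study as a gift. The MEF cells of the study are cited to another source, and the origin of the wt cells sequenced here is not stated separately. Genotype and origin of the cells therefore cannot be told apart. Nothing says that the libraries of a genotype came from separate cultures, and p-values then measure only the spread between these libraries, which may be technical.

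Glycolysis splits glucose into pyruvate and yields ATP without using oxygen. Lactate dehydrogenase turns pyruvate into lactate, which leaves the cell through monocarboxylate transporters, whereas pyruvate dehydrogenase, which its kinases switch off, commits pyruvate to the mitochondria. When oxygen is low, the subunits HIF-1α (Hif1a) and HIF-2α (Epas1) escape hydroxylation by the EGLN enzymes, pair with ARNT and activate genes with a short core motif, among them many glycolytic genes. Several steps of glycolysis have more than one isozyme, each encoded by its own gene with its own tissue pattern.

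The counts summed to between 133116830 and 149647278 per library, and 3 of the 36 members had a mean normalized count under 100. Top2b itself had 18259 and 18465 normalized counts in wt, against 3879 and 3789 in the Top2β-null libraries, 20.9% of the wt mean. Among 11 fibroblast markers, Lum had under 10 normalized counts on average, and the other 10 were above. The summed level of the 11 was 1312200 and 1336200 in wt and 893320 and 898230 in Top2β-null cells, where Col1a1 and Col3a1 were called lower and Thy1, Pdgfra, Pdgfrb and Dcn higher. Of 7 leukocyte markers, Ptprc, Tyrobp and Cd3e had under 10 normalized counts on average, Cd68 was called lower (log2 fold change -2.49), and Csf1r (0.36), Fcer1g (0.74) and Itgam (4.68) rose. The sum, most of it Cd68 in wt, was 2419 and 2498 in wt and 1351 and 1356 in Top2β-null cells. Of 7 epithelial markers, 5 were under 10, and the sum was 83.8 and 92.7 in wt and 23.8 and 26.7 in Top2β-null cells. The part of such differences in the results below was not tested. These are bulk libraries, in which fewer cells of a type and less RNA per cell cannot be told apart.

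The members that moved most did not follow one direction. In Top2β-null MEF cells, Ldhb, the gene of the heart-type lactate dehydrogenase subunit, was 102-fold higher, and Pdk4 and Eno2 were 4.86-fold and 3.58-fold higher. Ndrg1, Car9, Egln3 and Pdk2 fell to between 18.9% and 26.3% of the wt level, and Hk1 to 49.1%. The abundant core enzymes stayed within a narrow range, with log2 fold changes from -0.30 for Pgk1 to 0.33 for Tpi1 among Gpi1, Aldoa, Tpi1, Gapdh, Pgk1, Pgam1, Eno1, Pkm and Ldha.

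A gene was called when its adjusted p was below 0.05, its absolute log2 fold change above 1 and its mean normalized count above 100, which are the cut-offs the study set for differential expression. By this rule 3 members were called higher, against 5.52% of the 25085 genes tested, and 5 were called lower, against 5.25%. All 36 members passed the filter on low counts, and 33 had a mean above 100. Of the genes above that mean, 8.32% were called higher and 7.91% lower. By the adjusted p alone, at a threshold of 0.05, 10 members were higher and 19 lower, against 32.8% and 33.7% of all genes tested. The libraries of the genotypes did not overlap for 35 members, but this held for 81.9% of all genes tested. The median log2 fold change was -0.18 over the members and -0.0058 over all genes tested, and the median absolute value was 0.32 against 0.42, so that the median member moved no further than the median gene. In what follows, a gene is said to rise, fall or change when its adjusted p was below 0.05 (edgeR's quasi-likelihood test, Benjamini-Hochberg adjustment over all genes and repeats tested).

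**Figure D1:**
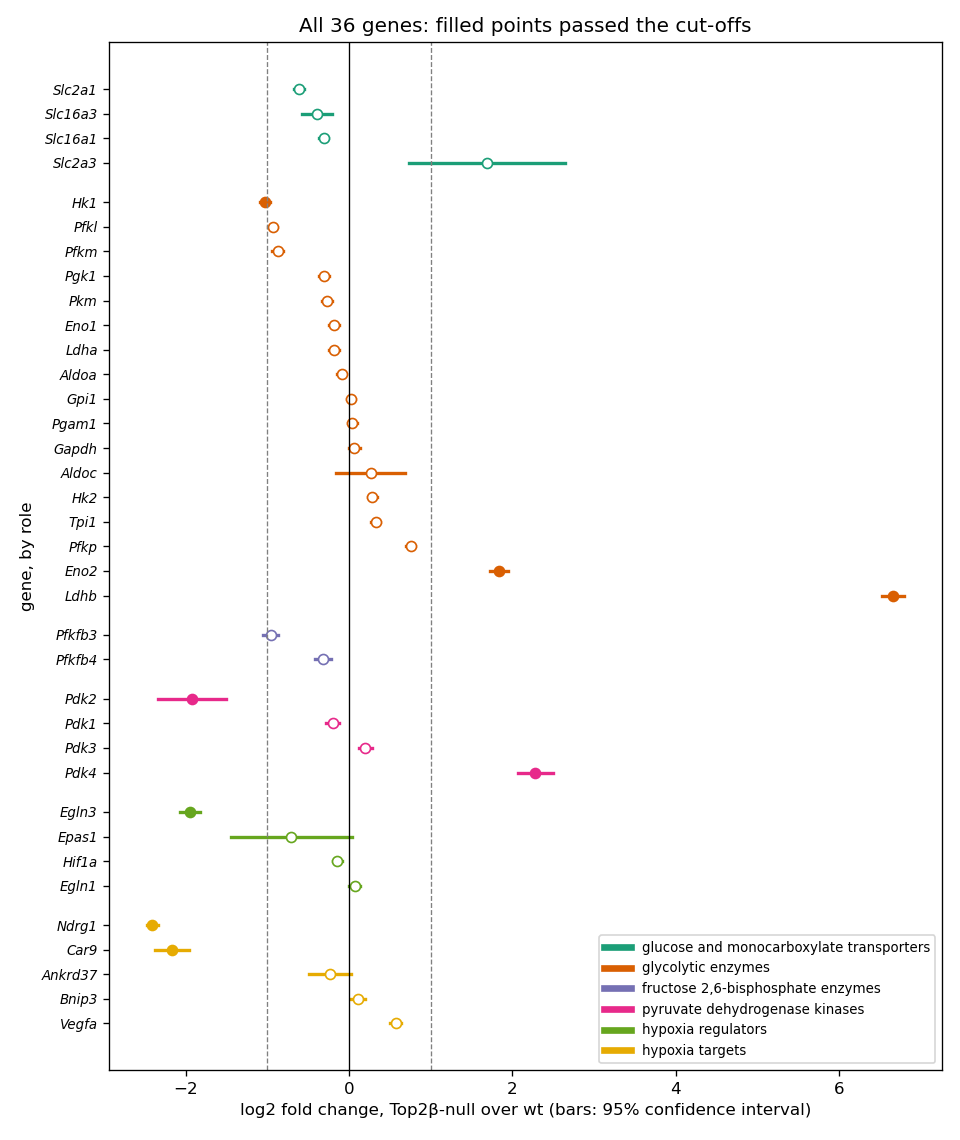
Log2 fold change of each of the 36 genes in Top2β-null over wt MEF cells, grouped by role, with 95% confidence intervals as bars; dashed lines mark an absolute value of 1. Filled points are the 8 called genes, of which Ldhb lies farthest out at 6.66, and most other points lie between the dashed lines.

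Promoter windows are printed here for 6 members. Car9 and Egln3 are hypoxia genes called lower, Bnip3 and Ankrd37 are hypoxia genes that were not called, and Ldhb and Pdk4 are the members called higher by the largest factors. Each window runs from 250 bases before to 50 after a RefSeq gene start (GRCm38.p6), 5′ to 3′ on the strand of the gene. Capitals mark the core of the hypoxia response element, ACGTG or GCGTG, on either strand.

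Car9 (chr4:43506776-43507075, forward strand): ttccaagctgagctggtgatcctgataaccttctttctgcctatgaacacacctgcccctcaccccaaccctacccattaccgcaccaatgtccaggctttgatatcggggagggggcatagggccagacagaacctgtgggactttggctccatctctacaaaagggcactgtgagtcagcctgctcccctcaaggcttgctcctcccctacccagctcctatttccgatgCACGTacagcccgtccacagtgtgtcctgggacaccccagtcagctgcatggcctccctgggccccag
Egln3 (chr12:54203825-54204124, reverse strand): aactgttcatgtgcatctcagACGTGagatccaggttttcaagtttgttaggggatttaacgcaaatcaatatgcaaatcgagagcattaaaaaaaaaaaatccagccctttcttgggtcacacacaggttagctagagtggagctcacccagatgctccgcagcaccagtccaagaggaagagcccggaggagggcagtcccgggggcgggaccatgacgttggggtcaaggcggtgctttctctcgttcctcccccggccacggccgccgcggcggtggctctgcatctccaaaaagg
Bnip3 (chr7:138909457-138909756, reverse strand): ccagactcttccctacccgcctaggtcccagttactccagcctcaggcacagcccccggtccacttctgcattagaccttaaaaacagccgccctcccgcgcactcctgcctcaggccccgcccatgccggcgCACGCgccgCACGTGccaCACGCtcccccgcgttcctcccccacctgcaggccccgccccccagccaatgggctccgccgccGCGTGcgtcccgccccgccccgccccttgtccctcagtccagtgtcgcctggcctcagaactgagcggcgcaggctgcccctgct
Ankrd37 (chr8:45999801-46000100, reverse strand): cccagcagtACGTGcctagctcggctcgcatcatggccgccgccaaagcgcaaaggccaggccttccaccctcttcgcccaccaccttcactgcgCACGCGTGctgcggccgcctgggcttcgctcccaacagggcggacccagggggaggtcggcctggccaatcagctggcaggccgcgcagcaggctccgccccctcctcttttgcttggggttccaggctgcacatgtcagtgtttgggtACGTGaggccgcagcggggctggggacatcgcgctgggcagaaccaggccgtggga
Ldhb (chr6:142507908-142508207, reverse strand): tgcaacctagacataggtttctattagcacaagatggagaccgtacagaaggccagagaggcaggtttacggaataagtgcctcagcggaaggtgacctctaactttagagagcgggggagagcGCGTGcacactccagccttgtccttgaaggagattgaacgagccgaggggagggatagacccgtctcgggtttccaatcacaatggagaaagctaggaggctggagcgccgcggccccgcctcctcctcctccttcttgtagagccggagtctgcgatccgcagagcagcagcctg
Pdk4 (chr6:5496229-5496528, reverse strand): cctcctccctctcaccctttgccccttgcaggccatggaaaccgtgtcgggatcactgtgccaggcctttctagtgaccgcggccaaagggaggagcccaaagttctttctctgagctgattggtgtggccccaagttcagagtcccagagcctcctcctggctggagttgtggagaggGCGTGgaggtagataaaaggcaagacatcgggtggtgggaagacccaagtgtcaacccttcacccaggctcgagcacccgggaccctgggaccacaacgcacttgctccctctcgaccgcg

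A window was found for 33 members (48 windows), and at least 1 of the cores lay in a window of 30 of them. Of the 48 windows, 79.2% held a core, against 43.8% of all 32851 windows of this length. ACGTG was present in 54.2% of the member windows and 19.6% of all, and GCGTG in 54.2% and 32.4%. The member windows also had more CG dinucleotides (median 20 against 7), which both cores contain. The core ACGTG overlaps the E-box CACGTG, which was present in 14.6% of the member windows and 7.2% of all. The windows of Car9 and Egln3, both called lower, held 1 core each, with first bases at -18 and -229 from the start. The windows of Bnip3 and Ankrd37, which were not called, held 5 and 4 matches, some of them overlapping. Those of Ldhb and Pdk4 held 1 each, at -126 and -71. Other called genes varied as well, with 5 matches in 1 of the windows of Hk1, 2 in 1 of those of Pdk2 and none in that of Eno2. A match is a description of these letters only. Slc2a3, Epas1 and Ndrg1 had no window.

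The main glucose transporter gene fell, and the hexokinase genes moved in opposite directions. Slc2a1, which encodes the broadly expressed glucose transporter GLUT1, had 12508 and 12899 normalized counts in wt, against 8264 and 8373 in the Top2β-null libraries. Both Top2β-null libraries lay below both wt libraries, and the log2 fold change was -0.61 (standard error, SE, 0.0263; adjusted p = 4.8e-12, edgeR). Slc2a3, the gene of the high-affinity transporter GLUT3, was barely detected, with 16 and 6 raw counts in wt and 43 and 27 in Top2β-null cells. Its log2 fold change of 1.70 (SE 0.448, adjusted p = 0.00347, edgeR) was 2.58 without wt replicate 1 and 1.12 without wt replicate 2, and its mean was below the cut-off of 100.

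Hk1 and Hk2 encode the hexokinases that trap glucose in the cell as glucose 6-phosphate. Hk1, on chromosome 10 of GRCm38 from 62268855 to 62379908 on the reverse strand, had 20341 and 20184 normalized counts in wt and 9736 and 10143 in Top2β-null cells. It fell with a log2 fold change of -1.03 (SE 0.0266, adjusted p = 7.6e-15, edgeR), just past the cut-off of 1. With counts scaled to the library total it was -0.96, and without Top2β-null replicate 1 it was also -0.96, both short of the fold cut-off but past the test. Hk2 rose from 14735 and 14544 to 17596 and 18118 normalized counts, a log2 fold change of 0.29 (adjusted p = 4.9e-08, edgeR). Per kb of exon, Hk1 made up 49.2% ± 0.0948 (SD, n = 2) of the summed hexokinase level in wt, against 28.0% ± 0.167 (SD, n = 2) in Top2β-null cells. The sum itself was 4827 ± 35.6 in wt, against 4157 ± 95.5 in Top2β-null cells (normalized counts per kb, SD, n = 2).

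Phosphofructokinase carries out the committed step of glycolysis, and its subunits are encoded by Pfkl (liver type), Pfkm (muscle type) and Pfkp (platelet type). Pfkl had 19795 and 20227 normalized counts in wt and 10621 and 10383 in Top2β-null cells. Pfkm had 6055 and 6073 in wt and 3350.4 and 3285 in Top2β-null cells. Both fell, with log2 fold changes of -0.93 and -0.87, just short of the fold cut-off. Pfkp rose from 5165 and 5143 to 8825 and 8587 normalized counts, with a log2 fold change of 0.76 (SE 0.0275, adjusted p = 5.5e-13, edgeR). In Pfkp, 5.6% of the exon bases are shared with exons of the neighbouring gene Pitrm1, and in Pfkm 10.7% are shared with other genes. Such shares were 15.3% in Pkm, 11.5% in Gpi1 and 8.1% in Hif1a. The share of Pfkp in the summed level per kb was 7.40% ± 0.0905 (SD, n = 2) in wt, against 20.2% ± 0.0665 (SD, n = 2) in Top2β-null cells. The length used is the union of all annotated exons, 13.4 kb for Pfkp, against 6.675 for Pfkl and 3.34 for Pfkm. Division by this length lowers the share of Pfkp relative to that in plain counts. The sum over the 3 genes was 5198 ± 48.4 normalized counts per kb in wt, against 3216 ± 51.6 (SD, n = 2) in Top2β-null cells. This is 0.619 times the wt level per kb, a ratio that depends on the division by exon length.

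The enzymes encoded by Pfkfb3 and Pfkfb4 set the level of fructose 2,6-bisphosphate, the strongest activator of phosphofructokinase. Both genes fell. Pfkfb3 had 3048 and 3041 normalized counts in wt and 1586 and 1548 in Top2β-null cells (log2 fold change -0.96, SE 0.0429, adjusted p = 8.3e-12, edgeR). Pfkfb4 had 2189 and 2237 in wt and 1825 and 1724 in Top2β-null cells, a log2 fold change of -0.32 (SE 0.0469, adjusted p = 1.8e-05, edgeR). Pfkfb2, a related gene outside the 36, rose with a log2 fold change of 0.77, and Pfkfb1 had 0.11 with an adjusted p of 0.162 (edgeR).

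In the middle and lower part of the pathway, the main enzyme of each step changed little. Gpi1 (glucose 6-phosphate isomerase), Gapdh (glyceraldehyde 3-phosphate dehydrogenase) and Pgam1 (phosphoglycerate mutase) did not pass the test, with 95% intervals of the log2 fold change from -0.025 to 0.080, from -0.0045 to 0.13 and from -0.013 to 0.10. The smallest difference was that of Gpi1, with 26598 and 27036 normalized counts in wt and 27227 and 27446 in Top2β-null cells (log2 fold change 0.028, SE 0.0247, adjusted p = 0.346, edgeR). It was 0.0012 without wt replicate 1 and 0.073 without Top2β-null replicate 1, and Pgam1 (0.043) was 0.028 without wt replicate 2 and 0.10 without Top2β-null replicate 1. Gapdh, often used as a reference gene, had 262207 and 274643 normalized counts in wt and 277889 and 283772 in Top2β-null cells. Its log2 fold change of 0.065 was past the threshold with DESeq2 (0.073), TMM factors from genes alone (0.084), no filter on low counts (0.082), scaling to the library total (0.14) and without wt replicate 2 (0.085) or Top2β-null replicate 1 (0.12), and was 0.017 without wt replicate 1. Scaling to the library total moved Pgam1 to 0.11 and Gpi1 to 0.098, both past the threshold. Tpi1 (triosephosphate isomerase) rose from 45115 and 45235 to 55964 and 57598, a log2 fold change of 0.33. Pgk1 (phosphoglycerate kinase), Pkm (pyruvate kinase), Eno1 (enolase 1) and Ldha fell with log2 fold changes of -0.30, -0.27, -0.19 and -0.18. With scaling to the library total, Eno1 stood at -0.12 and Ldha at -0.11, still past the test. Aldoa (aldolase A) had -0.087 (adjusted p = 0.0105, edgeR) and no longer passed with scaling to the library total (-0.018) or without Top2β-null replicate 1 (-0.023).

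**Figure D2:**
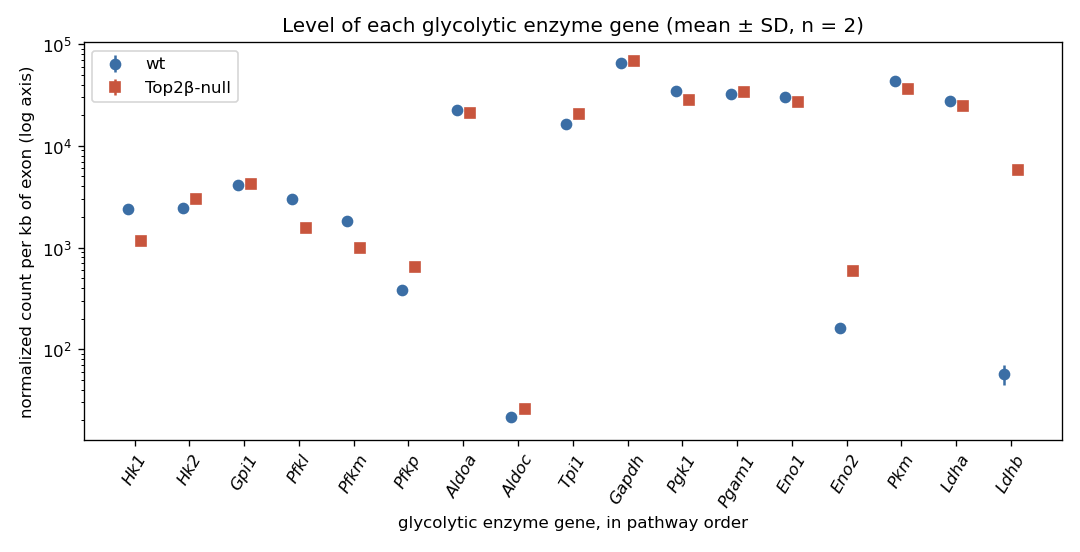
Level of the 17 glycolytic enzyme genes in pathway order as normalized counts per kb of exon on a log axis, with points for the mean and bars for the SD of 2 libraries. Gapdh is highest in both genotypes, and Ldhb is the gene whose 2 points lie farthest apart, at 57.0 and 5809.

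Per kb of exon, Gapdh was the highest of the 17 enzyme genes in both genotypes (64947 in wt and 67948 in Top2β-null cells), followed by Pkm (43325 and 36026). The lowest was Aldoc, at 21.5 and 25.9, whose log2 fold change of 0.27 did not pass the test (adjusted p = 0.252, edgeR) and was 0.14 without wt replicate 2. Summed over all 17, the level per kb was 286964 ± 3269 in wt, against 276615 ± 4139 in Top2β-null cells (SD, n = 2), a log2 ratio of -0.053, which turned to 0.017 with counts scaled to the library total. The summed transcript level of these 17 genes thus had no direction that held under both scalings. The sum leaves out further enzyme genes, among them Eno3, at 7005 per kb in wt and 1114 in Top2β-null cells. Of 22 other glycolytic and sugar enzyme genes tested, 8 rose and 9 fell, and a sum that includes them was not computed. Many of the 17 enzymes have near-identical copies, and reads with several alignments were kept. The counts of these enzymes may therefore be uncertain where reads were shared. The retrogene Eno1b had 32392 and 33959 normalized counts in wt and 13216 and 13517 in Top2β-null cells, 40.3% of wt, whereas Eno1 stood at 87.9%. The other copies that were looked up, named ones of Aldoa, Pgk1, Pgam1, Ldha and Gapdh, had at most 1946 normalized counts in any library.

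Enolase also gave the next called gene. Eno2, which encodes the enolase of neurons and lies on chromosome 6 from 124760053 to 124769673 on the reverse strand, had 739.8 and 797 normalized counts in wt and 2784 and 2719 in Top2β-null cells. Eno2 had a log2 fold change of 1.84 (SE 0.0522, adjusted p = 2.4e-14, edgeR), and both Top2β-null libraries lay far above the wt libraries. Of 5 neural markers, Tubb3 was also called higher (log2 fold change 1.15), Map2, Gfap and Sox10 fell, and Rbfox3 stayed under 2 normalized counts. Their summed level was 5599 and 5515 in wt and 7398 and 7704 in Top2β-null cells, and its part in the Eno2 result was not tested. Eno2 remained a small share of enolase RNA, with 0.535% ± 0.0214 (SD, n = 2) of the Eno1 and Eno2 sum per kb in wt, against 2.14% ± 0.0463 (SD, n = 2) in Top2β-null cells. Eno3, the muscle enolase and no member of the 36, went the other way, from 12040.1 and 12325 to 1904 and 1969.96 normalized counts (log2 fold change -2.65, adjusted p = 4.8e-19, edgeR). Among 6 skeletal muscle markers, Myog, Myh3 and Ckm had under 10 normalized counts on average, and the summed level was 392 and 411 in wt and 146 and 119 in Top2β-null cells.

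Ldhb showed the largest difference among the 36 genes. Lactate dehydrogenase is a tetramer of A and B subunits, and the B subunit, encoded by Ldhb on chromosome 6 from 142490249 to 142507957 (reverse strand), prevails in heart. Ldhb had 75.7 and 103 normalized counts in wt MEF cells, from 75 and 107 raw counts. In the Top2β-null libraries it had 9109.8 and 9129.7. The genotypes were thus apart by about 2 orders of magnitude, with a log2 fold change of 6.66 (SE 0.0634, adjusted p = 5.7e-20, edgeR). Ldha stayed close to its level, with 91690 and 91541 normalized counts in wt and 79859 and 81952 in Top2β-null cells. Ldhb made up 0.206% ± 0.0450 of the summed lactate dehydrogenase level per kb in wt, against 19.2% ± 0.260 (SD, n = 2), and the sum was 27735 ± 19.3 in wt, against 30251 ± 456 in Top2β-null cells. With each library left out, the log2 fold change of Ldhb stayed between 6.45 and 6.90.

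**Figure D3:**
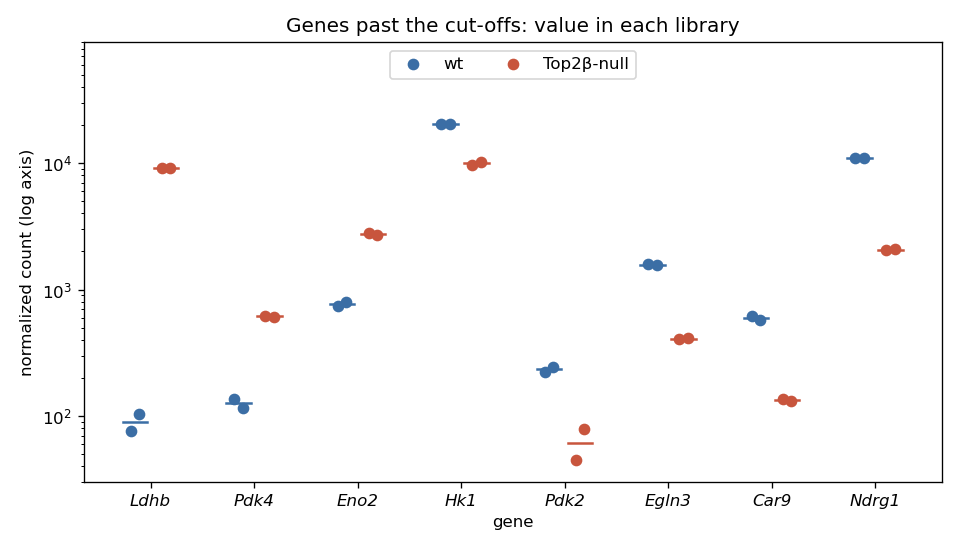
Normalized counts on a log axis of the 8 called genes in each library, with a line at the mean of each genotype. Ldhb, Pdk4 and Eno2 are higher in both Top2β-null libraries, the other 5 genes are lower in both, and Pdk2 has the widest spread between replicates, at 44.5 and 78.2.

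The export of lactate was represented by Slc16a1 (MCT1) and Slc16a3 (MCT4), and both fell. Slc16a1 had 21738 and 21444 normalized counts in wt and 17169 and 17709 in Top2β-null cells, a log2 fold change of -0.31 (SE 0.0255, adjusted p = 2.1e-08, edgeR). Slc16a3 had 421 and 415 in wt and 309 and 331 in Top2β-null cells, a log2 fold change of -0.39 (adjusted p = 9.3e-04, edgeR). Genes of chaperones of the monocarboxylate transporter family, outside the 36, moved apart. Bsg (basigin) fell with a log2 fold change of -0.56, and Emb (embigin) rose from 309.9 and 282 to 4405 and 4499.5 normalized counts, a log2 fold change of 3.91 (adjusted p = 4.7e-18, edgeR).

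The 4 pyruvate dehydrogenase kinases, which inhibit pyruvate dehydrogenase by phosphorylation, split into 2 that rose and 2 that fell. Pdk4, induced by fasting in many tissues, lies on chromosome 6 from 5483351 to 5496309 (reverse strand) and had 137 and 115 normalized counts in wt and 616 and 609 in Top2β-null cells. Pdk4 rose with a log2 fold change of 2.28 (SE 0.101, adjusted p = 6.9e-12, edgeR). Pdk2, on chromosome 11 from 95026258 to 95041354 (reverse strand), had 223 and 244 in wt and 44.5 and 78.2 in Top2β-null cells. Pdk2 fell with a log2 fold change of -1.92 (SE 0.194, adjusted p = 2.4e-07, edgeR), and it ranged from -2.37 to -1.54 with each library left out.

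Pdk1, a classical HIF-1 target, fell slightly (4253 and 4169 to 3568 and 3785 normalized counts, log2 fold change -0.20, SE 0.0370, adjusted p = 2.2e-04, edgeR; -0.13 with scaling to the library total and -0.11 without Top2β-null replicate 1), and Pdk3 rose slightly (3720.3 and 3504 to 4139 and 4174, log2 fold change 0.20). Per kb, Pdk3 was the main kinase gene in both genotypes, with 68.4% ± 0.668 of the sum in wt, against 70.9% ± 0.678 in Top2β-null cells (SD, n = 2). Pdk4 went from 1.74% ± 0.162 to 7.62% ± 0.181 and Pdk2 from 3.59% ± 0.348 to 0.845% ± 0.316 (SD, n = 2).

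Ratios of related genes within a library need no scaling between libraries, and 14 such pairs were compared. The log2 ratio of Ldhb to Ldha per kb was -9.17 and -8.71 in wt, against -2.06 and -2.09 in the Top2β-null libraries, so that the means lay 6.87 apart with a pooled SD of 0.226. For Hk2 to Hk1 the ratio went from 0.050 and 0.043 to 1.37 and 1.35, so that genes of like level in wt stood apart in Top2β-null cells. Pfkp to Pfkl changed by 1.69, Eno2 to Eno1 by 2.03, Pdk4 to Pdk1 by 2.48 and Pfkfb4 to Pfkfb3 by 0.64. Egln3 to Egln1 changed by -2.02 and Pdk2 to Pdk1 by -1.79. The smallest differences were 0.060 for Pfkm to Pfkl and -0.080 for Slc16a3 to Slc16a1. In all 14 pairs the libraries did not overlap, which held for 81.9% of single genes tested and was not counted for other pairs. With 2 libraries against 2, however, the two-sided exact permutation test can give no p below 0.33, and each pair had p = 0.33 (adjusted over the 14 pairs, 0.33).

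**Figure D4:**
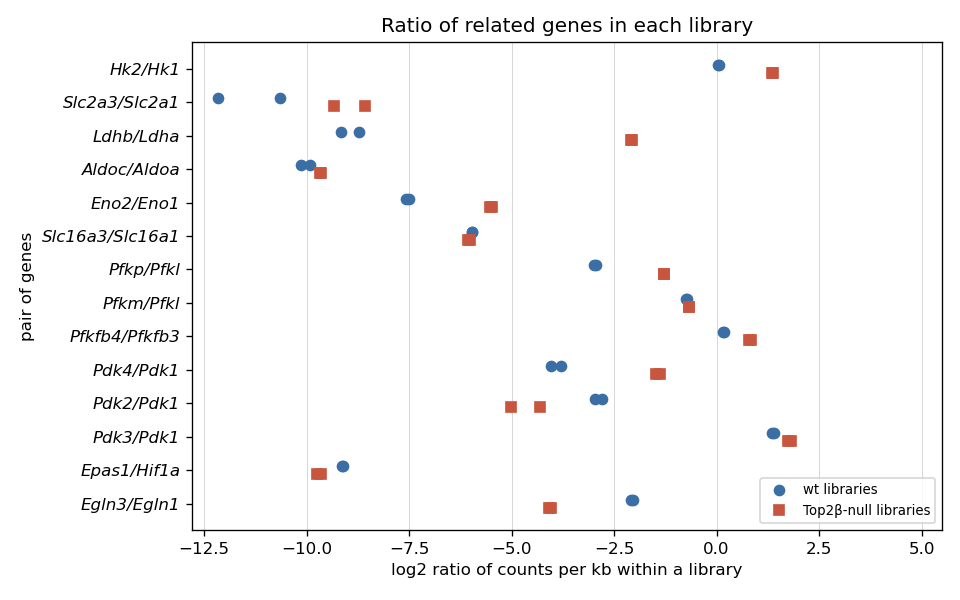
Log2 ratio of the counts per kb of 2 related genes within each library, with circles for the 2 wt and squares for the 2 Top2β-null libraries. The squares lie far to the right of the circles for Ldhb/Ldha (6.87 apart in the mean), whereas Pfkm/Pfkl and Slc16a3/Slc16a1 nearly coincide.

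Among the regulators of the hypoxia response, Hif1a fell slightly, Epas1 and Egln1 did not pass the test, and Egln3 fell steeply. Hif1a, whose protein is controlled mainly by degradation, had 16806 and 16353 normalized counts in wt and 14870.2 and 15164 in Top2β-null cells (log2 fold change -0.14, adjusted p = 1.3e-04, edgeR). It was -0.073 with scaling to the library total and -0.090 without Top2β-null replicate 1. Epas1 had 28 and 29 raw counts in wt and 17 in each Top2β-null library, and its log2 fold change of -0.70 had a 95% interval from -1.44 to 0.033, so that neither a fall nor a small difference could be told at this depth. The log2 ratio of Epas1 to Hif1a per kb averaged -9.13 in wt MEF cells. Of 7 endothelial markers, a cell type in which Epas1 is abundant, Tie1 and Emcn had under 10 normalized counts on average, Kdr (log2 fold change 1.54) and Vwf (0.86) rose, Tek fell (-2.54), and Pecam1 and Cdh5 did not pass the test. Their summed level was 241 and 214 in wt and 368 and 369 in Top2β-null cells.

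Egln1 (PHD2) and Egln3 (PHD3) encode prolyl hydroxylases that mark HIF-α for degradation, and Egln3 is itself induced by HIF. Egln3, on chromosome 12 from 54178981 to 54203860 (reverse strand), had 1581 and 1572 normalized counts in wt and 405 and 414 in Top2β-null cells. It fell with a log2 fold change of -1.94 (SE 0.0596, adjusted p = 6.3e-14, edgeR). Egln1 had 9073 and 8653 in wt and 9048 and 9566 in Top2β-null cells. It was the only one of the 36 whose genotypes overlapped, and its log2 fold change of 0.071 (SE 0.0315, adjusted p = 0.0603, edgeR) was past the threshold in 6 of 10 alternatives. It ranged from 0.022 without wt replicate 2 to 0.15 without Top2β-null replicate 1, so that this result depends on the processing. Of 10 other regulators tested, 6 rose, 2 fell and 2 did not pass the test. Of the HIF coactivators, Ep300 fell with a log2 fold change of -0.22 and Crebbp rose with 0.445. Siah2 fell with -0.28 and its relative Siah1a rose with 0.455. Egln2 and Cited2 did not pass, while Vhl, the ubiquitin ligase subunit that recognizes hydroxylated HIF-α, rose with a log2 fold change of 0.39. Arnt, the partner of HIF-α, rose by 0.12. Its relative Arnt2 was called, with 1032 and 1051 normalized counts in wt and 6567 and 6703 in Top2β-null cells (log2 fold change 2.67, adjusted p = 5.3e-18, edgeR).

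The 5 hypoxia targets did not move together. Ndrg1, a stress-responsive gene on chromosome 15 from 66929318 to 66969640 (reverse strand), had 10911 and 10974.5 normalized counts in wt and 2035 and 2097 in Top2β-null cells. Ndrg1 had a log2 fold change of -2.41 (SE 0.0301, adjusted p = 1.1e-18, edgeR). Car9, the gene of the membrane carbonic anhydrase IX, lies on chromosome 4 from 43506966 to 43513729 (forward strand) and had 617 and 576 in wt and 136 and 131 in Top2β-null cells. Its log2 fold change was -2.16 (SE 0.0968, adjusted p = 8.3e-12, edgeR). An antisense gene shares 9.3% of the exon bases of Car9, and an antisense and a divergent gene share 8.4% of those of Ndrg1. Whether the counting used the strand is not given in the sources used here.

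Vegfa, the main angiogenic factor, rose instead, from 6099 and 5791 to 8798 and 8860.3 normalized counts (log2 fold change 0.57, SE 0.0291, adjusted p = 4.4e-11, edgeR). Bnip3, which promotes mitophagy, had 2822 and 2757 in wt and 2945 and 3097 in Top2β-null cells. Its log2 fold change of 0.12 (SE 0.0409, adjusted p = 0.0214, edgeR) did not pass with DESeq2 (adjusted p = 0.0623), nor with edgeR without wt replicate 2 (adjusted p = 0.134) or without Top2β-null replicate 2 (adjusted p = 0.111). It was 0.19 with scaling to the library total and also without Top2β-null replicate 1. Ankrd37 had 287.7 and 287.8 in wt and 276.5 and 213 in Top2β-null cells. Its log2 fold change of -0.24 did not pass the test (adjusted p = 0.101, edgeR) and rested on single libraries, being -0.40 and past the threshold without Top2β-null replicate 1 and -0.039 without Top2β-null replicate 2. Antisense or neighbouring genes share 22.3% of the exon bases of Bnip3 and 26.4% of those of Ankrd37.

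Of 107 other genes of these pathways, 95 passed the filter on low counts. Of these, 10 were called higher and 12 lower, and 41 rose and 41 fell, with a median log2 fold change of -0.033. These counts can be set beside the shares of all genes tested, 5.52% called higher and 5.25% called lower, and 32.8% higher and 33.7% lower by the adjusted p alone. Of the 95, however, 85 had a mean normalized count above 100, which a call requires. Among all genes above that mean, 8.32% were called higher and 7.91% lower. Among 35 tested hypoxia targets outside the 36 members, 6 were called higher and 6 lower, and 16 rose and 18 fell. Stc1 (stanniocalcin 1) had 13.1 and 9.66 normalized counts in wt and 1736 and 1759.99 in Top2β-null cells, a log2 fold change of 7.25 (SE 0.116, adjusted p = 1.9e-17, edgeR). The VEGF receptor gene Flt1 (3.15), Igfbp3 (3.08), Car12 (2.09), Loxl2 (1.48) and Rora (1.33) were the others called higher.

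Ddit4, an inhibitor of mTORC1 signalling, fell from 1753 and 1817 to 360.4 and 331 normalized counts (log2 fold change -2.37, adjusted p = 1.2e-14, edgeR), and Ak4, a mitochondrial adenylate kinase, from 5786 and 5713 to 1430.3 and 1397 (log2 fold change -2.02). Lox (-1.36), Stc2 (-1.33), Bnip3l (-1.21) and Plod1 (-1.13) were also called lower. Related genes moved apart in some cases (Stc1 and Stc2, Loxl2 and Lox) and together in others, with P4ha1 at -0.69 and P4ha2 at -0.40, and Plod1 at -1.13 and Plod2 at -0.40. These pairs were chosen after their values were seen.

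**Figure D5:**
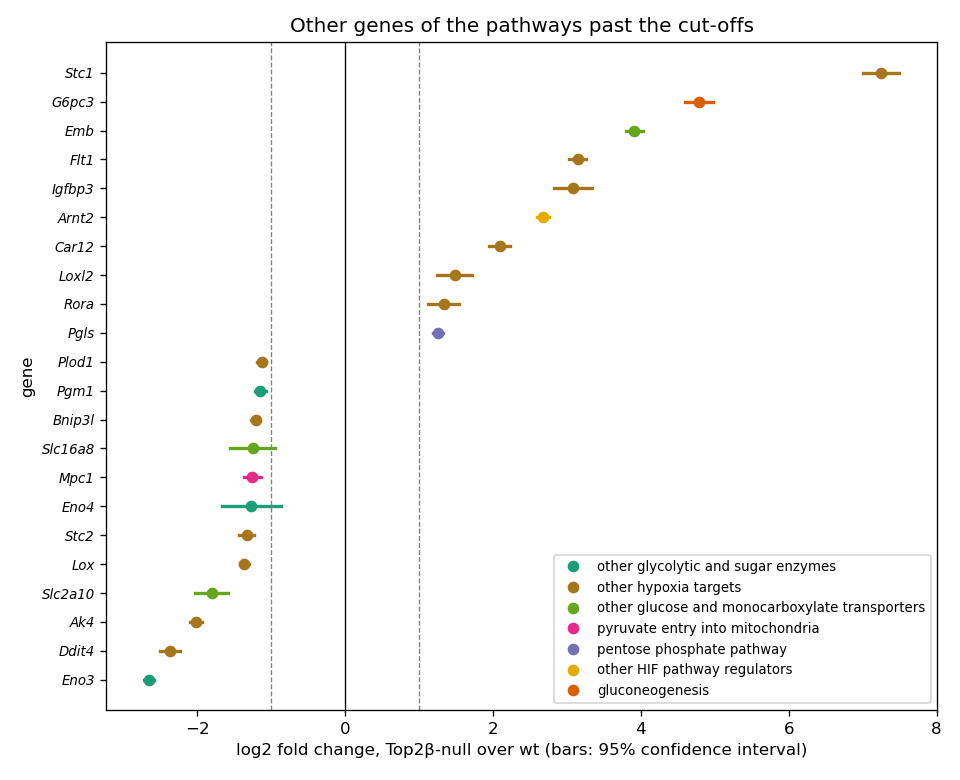
Log2 fold change with 95% confidence intervals of the 22 called genes outside the 36, coloured by pathway list; dashed lines mark an absolute value of 1. They run from -2.65 for Eno3 to 7.25 for Stc1, with 10 genes on the right and 12 on the left.

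In the branches off glycolysis, the largest difference was that of G6pc3, the broadly expressed glucose 6-phosphatase. It had 62.6 and 59.9 normalized counts in wt and 1632 and 1751 in Top2β-null cells (log2 fold change 4.79, SE 0.0895, adjusted p = 1.3e-16, edgeR). The gluconeogenic genes Fbp1, Fbp2, Pck1 and G6pc had at most 2 counts in every library and were not tested. Of 8 pentose phosphate genes, 5 rose and 3 fell. Pgls (6-phosphogluconolactonase) was called higher at 1.25, whereas G6pdx and Pgd, the NADPH-producing dehydrogenases before and after it, fell with -0.41 and -0.54. Of 9 genes for the entry of pyruvate into mitochondria, Mpc1, a subunit of the pyruvate carrier, was called lower. It had 1966 and 1924 normalized counts in wt and 819 and 811 in Top2β-null cells (log2 fold change -1.25, adjusted p = 2.8e-12, edgeR), and its partner Mpc2 fell by 0.16 on the log2 scale. Of the exon bases of Mpc1 and Pgls, 23.1% and 20.6% are shared with another gene. Pgm1 (-1.15) and Eno4 (-1.27) among the sugar enzymes, and Slc2a10 (-1.81) and Slc16a8 (-1.25) among the transporters, were the remaining genes called lower.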

How the data were processed

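The authors deposited whole-number counts for genes and repeat families, not normalized. Paired-end reads had been trimmed (Trim Galore!) and mapped to mm10 by STAR, which kept reads with several alignments, before TEtranscripts counted them on Gencode M9 genes and repeats. Its counting mode and strand setting are not given in the sources used here. Symbols, positions and exon lengths come from GENCODE M21 (GRCm38), which matched 54409 of 54842 gene IDs, and promoter windows from RefSeq (GRCm38.p6). Exon length is that of the union of all annotated exons of a gene, so that shares per kb depend on the annotation. Of gene IDs with the same symbol, the protein-coding one with the longer exons was used (Aldoa).

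The tests used R 4.3.3 with edgeR 4.0.16 (TMM factors over genes and repeats, quasi-likelihood test, genotype as the only term). They covered 26566 genes and repeat families that reached 10 counts in 2 or more libraries, and p-values were adjusted over all of these by the Benjamini-Hochberg method. SE is the absolute log2 fold change over the square root of F. Normalized counts are counts divided by each library's effective size, relative to the geometric mean over libraries. Levels of members were compared with each other per kb of exon. Marker sums and the counts of gene copies are normalized counts that were not divided by length. Replicates differed by more than sampling noise in both genotypes by a chi-square comparison of their counts.

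DESeq2 1.42.0, other scalings, filters and call rules, a replicate block and leaving out each library were alternatives. Both tools were tested on simulated data. All 36 members are accounted for, with full values for called members and the extremes of each role, and of other pathway genes all called ones are named. Some items of the pathway and marker lists are not reported here. The members and lists were chosen with earlier results of these data known. Genistein-treated cells were not analysed here.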

Additional observations from a re-analysis of the deposited data

How the results depend on the processing

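The number of members called stayed at 2 to 3 higher and 4 to 5 lower with DESeq2, TMM factors from genes alone, scaling to the library total, no filter on low counts, at least 100 counts in every library, the replicate block and each library left out. Ldhb, Pdk2, Slc2a3, Aldoc and Epas1 drop out of the fit that asks for 100 counts in every library, which gives them no value. When the adjusted p threshold of 0.05 was applied alone, 10 members were higher and 19 lower, and 41 and 41 of the other pathway genes. The summed level of the 17 enzymes turned from -0.053 to 0.017 (log2) with scaling to the library total. For single members, 198 values from fits with all libraries kept direction and side of the threshold, 11 passed it where the reported fit did not (Gpi1, Gapdh, Pgam1 or Egln1) and 2 lost it (Aldoa and Bnip3). With a library left out these numbers were 134, 7 and 3, and no member changed direction in any fit. Of the 7, most came from leaving out Top2β-null replicate 1, which moved Gpi1 to 0.073, Gapdh to 0.12, Pgam1 to 0.10 and Egln1 to 0.15 and Ankrd37 to -0.40. Leaving out a library leaves 1 in its genotype, which is assumed to vary like the other genotype. The cause was not tested.

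Replicate numbers 1 and 2 occur in each genotype. A replicate block on them gave 3 members called higher and 5 lower and changed no call of a member. Deviations of same-numbered libraries from their genotype means correlated at 0.0197, so that nothing shows that the numbers pair the libraries.

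Depth limits Slc2a3 and Epas1, at 6 to 43 and 17 to 29 counts per library.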
